A study of Arabidopsis thaliana with 24 samples.

Results

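The transcript response of Arabidopsis thaliana seedlings to extracellular ATP was examined in p2k1-3, a mutant of the ATP receptor gene P2K1. The libraries were chosen by their labels as p2k1-3 given 150 µM ATP for 30 min (3 libraries) and p2k1-3 given a mock treatment (3 libraries), which made 6 of the 24 libraries of the series. The same treatments of the double mutant p2k1-3 bdg-8 (6 libraries) and of the wild type Col-0 (6 libraries) served as comparisons. The rest of the series was the single mutant bdg-8, with 3 ATP and 3 mock libraries. Those entered the shared statistical model, the mean level over all 24 libraries and the check of replicate 3, and are not compared here. All groups were RNA of whole seedlings. The labels name the alleles and not their lesions. Nothing in them says that replicates came from separate cultures, so p-values cover only the scatter among these libraries, part of which could be technical.

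ATP leaks from wounded or infected plant cells and acts outside the cell as a damage signal. P2K1 (also called DORN1) is a lectin receptor kinase of the plasma membrane that binds this ATP. Binding is followed by a rise of calcium in the cytosol, a burst of reactive oxygen made by the oxidase RBOHD, activation of MAP kinases and induction of wound and defence genes. The comparison of ATP with mock in p2k1-3 asks which transcripts still respond in seedlings mutated in this receptor.

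The p2k1-3 libraries held between 27177728 and 33339432 counts in genes, and expression was compared for 20995 genes with edgeR's quasi-likelihood test. Values are log2 fold changes of ATP over mock ± SE, and levels are CPM (counts scaled to a common library size) in replicates 1, 2 and 3. Each SE is the size of the change divided by the square root of the F statistic of its test. It can be too small for large changes from few counts. The SEs of separate responses therefore need not match the SE of their difference. A gene was called when its edgeR adjusted p was under 0.05. In all 8 groups of the series replicate 3 lay between replicates 1 and 2. Among mixtures of replicates 1 and 2, the one nearest to replicate 3 gave replicate 1 a weight between 0.375 and 0.525, and the weight was 0.5 in p2k1-3 ATP and in p2k1-3 mock. In p2k1-3 mock the variance of replicate 3 around that mixture was 1.33 times the sampling noise, against 2.11 times around replicate 1 and 1.86 times around replicate 2. For replicates 1 and 2, in every group, no mixture of the other libraries came nearer than replicate 3 by itself. Whether replicate 3 is a separate sample cannot be told from the counts, so counts of genes are also given for replicates 1 and 2 alone. All other SEs and adjusted p-values count replicate 3 as a separate library. If it is not one, they are too small. Fewer cells of a type and less RNA per cell cannot be told apart in whole seedlings, which holds for every difference below.

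P2K1 transcript was reduced in the mutant, where its response to ATP did not pass the test. It stood at 12, 13.5 and 13.4 CPM in p2k1-3 ATP and 11.9, 13.2 and 11.4 CPM in p2k1-3 mock, against 26.9, 25.6 and 27.4 CPM in Col-0 ATP and 20.9, 21 and 22.4 CPM in Col-0 mock. The p2k1-3 ATP and mock values overlapped, and every p2k1-3 library was below every Col-0 library. The response was 0.10 ± 0.07 (edgeR adjusted p = 0.379) in p2k1-3 and 0.31 ± 0.06 in Col-0, where P2K1 rose. The difference between these responses was not called, at -0.21 ± 0.10 (edgeR adjusted p = 0.257). Which region of P2K1 the mutant's reads covered is not visible from gene-level counts.

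ATP still changed many transcripts in p2k1-3. Of the 20995 genes, 4287 (20.4%) were called, with 2497 (11.9%) higher and 1790 (8.53%) lower after ATP. Rises of at least 2 fold made up 449 of them (2.14% of all genes) and falls of at least 2 fold 167 (0.795%). Replicates 1 and 2 alone called 1883 genes (8.96%), of which 1380 (6.57%) were higher and 503 (2.39%) lower, and 1874 of the 1883 were among the 4287. In Col-0, ATP called 4585 genes (21.8%) with all replicates and 2494 (11.9%) with replicates 1 and 2. The 1850 genes that rose in both genotypes were 74.1% of the rises in p2k1-3 and 66.9% of those in Col-0. The 741 that fell in both were 41.4% of the falls in p2k1-3 and 40.7% of those in Col-0. Of the rises in p2k1-3, 6 genes fell in Col-0, and of the falls in p2k1-3, 36 rose in Col-0.

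Genes that responded strongly in Col-0 mostly had smaller values in p2k1-3. The 785 genes that rose at least 2 fold in Col-0 (3.74% of all genes) had a median log2 fold change of 1.02 in p2k1-3 and 1.68 in Col-0. The median ratio of the responses was 0.631 (quartiles 0.429 and 0.792), and 724 of the 785 had the smaller value in p2k1-3. For the 120 genes that fell at least 2 fold in Col-0 (0.572%) the medians were -0.79 in p2k1-3 and -1.21 in Col-0. These genes were chosen by their size in Col-0, so the sets were also read the other way round. The 449 genes that rose at least 2 fold in p2k1-3 had medians of 1.52 in p2k1-3 and 1.94 in Col-0, and 323 of them were smaller in p2k1-3. The 167 that fell at least 2 fold in p2k1-3 had medians of -1.30 in p2k1-3 and -0.44 in Col-0. The edgeR test of the difference itself called 940 genes (4.48%), 143 (0.681%) with a higher and 797 (3.8%) with a lower response in p2k1-3. With replicates 1 and 2 alone it called 149 genes (0.709%), all of them lower in p2k1-3. A lower response to ATP can come with a higher mock level, a lower level after ATP or both.

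**Figure D1:**
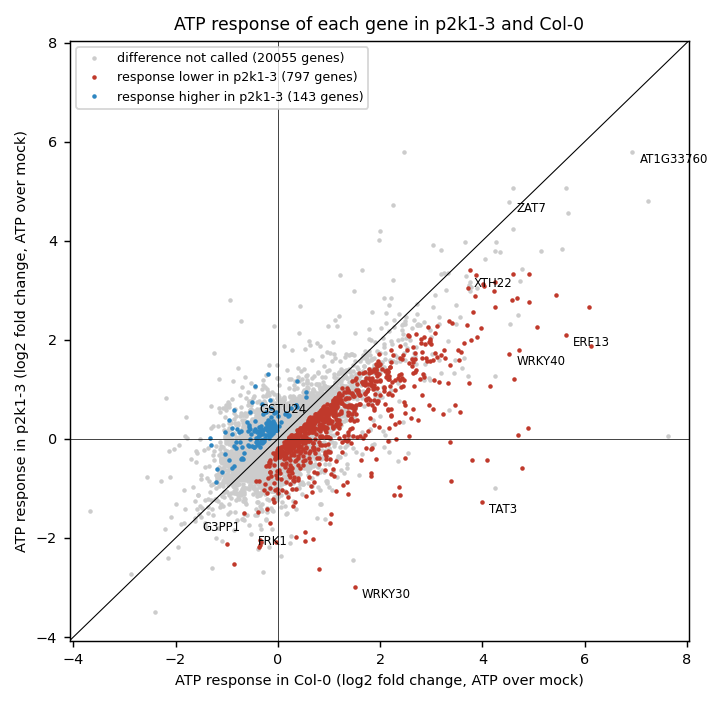
Log2 fold change of ATP over mock for each of the 20995 genes in p2k1-3 (vertical axis) and in Col-0 (horizontal axis), with the line of equal response; red and blue points are genes whose difference between the responses was called. The 797 red points lie below the line and the 143 blue points above it, and most genes with strong rises in Col-0 have a smaller positive value in p2k1-3.

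Rises, falls and differences were ranked among genes whose mean log2 CPM was 1 or more over the 24 libraries that were called with all replicates and with replicates 1 and 2 alone. The 12 largest rises in p2k1-3 by this ranking were between 9.72 and 55.6 fold. AT1G33760, annotated as an integrase-type DNA-binding protein and a member of the ERF and DREB list, had 16.5, 18.6 and 18 CPM in p2k1-3 ATP and 0.198, 0.393 and 0.352 CPM in p2k1-3 mock. ZAT7, a zinc finger factor of stress responses, had 8.31, 12 and 10.7 CPM in p2k1-3 ATP and 0.198, 0.5 and 0.411 CPM in p2k1-3 mock. ACS11, which makes the precursor of the hormone ethylene, had 19.5, 19.3 and 18 CPM in p2k1-3 ATP and 0.99, 1.61 and 1.47 CPM in p2k1-3 mock. In each gene every ATP library lay above every mock library. Genes picked for large called changes in these libraries will mostly show this. Here and below, groups without overlap therefore describe the levels and add no support. The share of such genes over all genes was not counted. The log2 fold changes were 5.80 ± 0.18 (edgeR adjusted p = 1.28e-17) for AT1G33760, 4.79 ± 0.28 (edgeR adjusted p = 2.18e-12) for ZAT7 and 3.80 ± 0.13 (edgeR adjusted p = 9.73e-17) for ACS11. Their differences from Col-0 were not called, with values of -1.13 ± 0.51, 0.27 ± 0.54 and -0.45 ± 0.25. AT1G33760 and ZAT7 had only 29 and 34 counts summed over the p2k1-3 mock libraries, so the SEs of their rises may be too small.

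Cell wall genes were among the same 12. XTH22, a touch-induced enzyme that remodels xyloglucan in the wall, had 370, 422 and 398 CPM in p2k1-3 ATP and 39.6, 41 and 42 CPM in p2k1-3 mock, a rise of 3.28 ± 0.10. EXLA1, an expansin-like wall protein, had 104, 96.6 and 95.3 CPM in p2k1-3 ATP and 8.15, 9.65 and 10 CPM in p2k1-3 mock, a rise of 3.41 ± 0.07. PHI-1, of the phosphate-responsive family, rose by 4.24 ± 0.11 and the glycosyltransferase gene AT2G41640 by 3.98 ± 0.09. The ATP and mock libraries did not overlap for any of the 4. CYP707A3, which breaks down abscisic acid, rose by 3.76 ± 0.17, and AT3G55840, annotated as an Hs1pro-1 protein, by 3.63 ± 0.25. The remaining rises were those of AT1G66090 (3.33 ± 0.19), annotated as a disease resistance protein, of the glycine-rich protein gene AT1G07135 (3.32 ± 0.10) and of AT2G27080 (3.31 ± 0.08), of the late embryogenesis abundant family.

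All 12 rises were called in every setting tried, with log2 fold changes between 3.09 and 5.96. The response was called lower than in Col-0 for 4 of the 12, namely EXLA1, AT1G66090, AT1G07135 and AT2G27080, and higher for none. With replicates 1 and 2 alone AT1G07135 kept that call (-1.27 ± 0.16 with all replicates) and the other 3 did not. AT1G66090 had a difference of -1.59 ± 0.38 (edgeR adjusted p = 0.0123), and in mock it was higher in the mutant, with 2.64, 1.97 and 2.52 CPM in p2k1-3 mock and 1.19, 0.814 and 0.784 CPM in Col-0 mock.

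**Figure D2:**
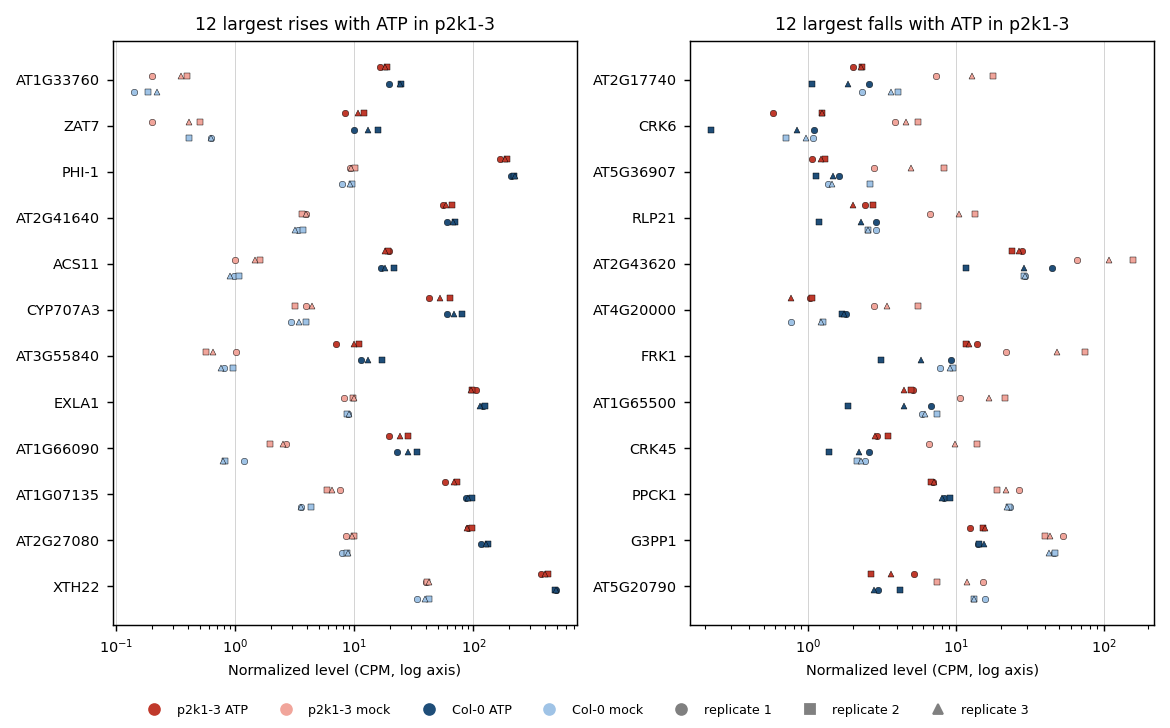
Normalized level (CPM, log axis) of the 12 largest rises and 12 largest falls with ATP in p2k1-3 among genes whose mean log2 CPM was 1 or more, 1 point per library of p2k1-3 ATP, p2k1-3 mock, Col-0 ATP and Col-0 mock; circles, squares and triangles are replicates 1, 2 and 3. For the rises the ATP libraries of both genotypes lie apart from mock, and for the first 9 falls p2k1-3 mock holds the highest levels.

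Some strong responses in p2k1-3 were close in size to those of the wild type. Among 67 genes called in the same direction in both genotypes with changes of at least 4 fold and that minimum level, the 6 with the nearest log2 responses were picked for that likeness, so their values are a description. AT2G44500, annotated as an O-fucosyltransferase, had 88.1, 93.4 and 87.6 CPM in p2k1-3 ATP and 18.4, 20.7 and 20.6 CPM in p2k1-3 mock, against 95.4, 102 and 97.7 CPM in Col-0 ATP and 20.3, 23.7 and 21.5 CPM in Col-0 mock. Its log2 rise was 2.17 ± 0.07 in p2k1-3 and 2.17 ± 0.07 in Col-0. AT3G19680, which encodes a protein of unknown function, had 138, 139 and 133 CPM in p2k1-3 ATP and 31.4, 35.6 and 32.7 CPM in p2k1-3 mock, a rise of 2.04 ± 0.05, with 2.05 ± 0.05 in Col-0. AT2G35290 (2.72 ± 0.11), AT2G23100 (2.26 ± 0.08), AT4G27657 (2.37 ± 0.25) and AT1G22470 (2.29 ± 0.13) completed the set in p2k1-3. All 6 responses were smaller than in p2k1-3 bdg-8, with log2 differences between -1.90 and -0.43. The difference of -1.90, that of AT4G27657, was not called with replicates 1 and 2 alone.

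Lectin receptors related to P2K1 and enzymes that remove extracellular nucleotides were called about as seldom as genes in general. In the list of 23 such genes, 2 rose and 1 fell in p2k1-3, and no difference from Col-0 was called. Over all genes 11.9% were called higher and 8.53% lower, which for a list this small is near those counts. Replicates 1 and 2 alone called 1 higher and 0 lower. LECRK-I.7, a lectin receptor kinase of the same clade as P2K1, had 22.8, 24.6 and 23.7 CPM in p2k1-3 ATP and 13.2, 14.2 and 14.6 CPM in p2k1-3 mock. Its groups did not overlap, and it rose by 0.76 ± 0.07, with 0.93 ± 0.07 in Col-0. AT1G14250, a nucleoside phosphatase of the family to which apyrases belong, had 8.52, 15.2 and 12.5 CPM in p2k1-3 ATP and 4.36, 2.79 and 3.31 CPM in p2k1-3 mock, a rise of 1.79 ± 0.38 (edgeR adjusted p = 0.00107) that was not called with replicates 1 and 2 alone. LECRK-I.3 had a value of -0.40 ± 0.10, and its call ended without p2k1-3 ATP replicate 3 (-0.30, edgeR adjusted p = 0.0629). These lectin receptor genes include close copies, so reads of single members are uncertain.

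Most calcium signalling genes of the list rose in p2k1-3, and none fell. This list and those below were chosen with earlier results of these data known, so the shares called are a description. Over all genes 11.9% were called higher and 8.53% lower in p2k1-3, against 13.2% and 8.67% in Col-0. Of 34 tested, 25 rose, with a median log2 fold change of 0.51, against 28 rises in Col-0 with a median of 0.82. The median over all genes was -0.01 in each genotype. Replicates 1 and 2 alone called 17 higher and 0 lower in p2k1-3. Sensors rose in 10 of 12 cases (median 1.53 in p2k1-3 and 2.82 in Col-0). Calcium-dependent kinases rose in 8 of 9 cases (median 0.44 in p2k1-3 and 0.80 in Col-0) and pumps and channels in 7 of 13 (median 0.21 in p2k1-3 and 0.37 in Col-0). CML37, a calmodulin-like sensor, had 3.04, 6.41 and 4.71 CPM in p2k1-3 ATP and 0.297, 0.322 and 0.381 CPM in p2k1-3 mock, a rise of 3.79 ± 0.38. CML38, a related sensor, had 20.2, 33.4 and 26.3 CPM in p2k1-3 ATP and 3.56, 3.32 and 3.84 CPM in p2k1-3 mock, a rise of 2.89 ± 0.17. The ATP and mock libraries overlapped in neither gene. AT3G29000, which encodes a calcium-binding EF-hand protein, rose by 2.91 ± 0.22 and CML39 by 2.77 ± 0.39, the second from only 14 counts summed over the mock libraries.

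A lower response in p2k1-3 than in Col-0 was called for 19 of the 34 calcium genes and a higher one for 0, and with replicates 1 and 2 alone for 8 and 0. AT3G29000 rose by 5.44 ± 0.27 in Col-0, and the difference was -2.53 ± 0.45 (edgeR adjusted p = 0.000925). CML39 rose by 4.92 ± 0.21 in Col-0, and the difference was -2.15 ± 0.61 (edgeR adjusted p = 0.0439). Neither of these was called with replicates 1 and 2 alone. For CML37 the difference of -1.36 ± 0.79 did not pass the test. AT3G29000 was higher in p2k1-3 mock than in Col-0 mock (1.97 on the log2 scale), and CML39 had -1.37 there, which was not called.

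**Figure D3:**
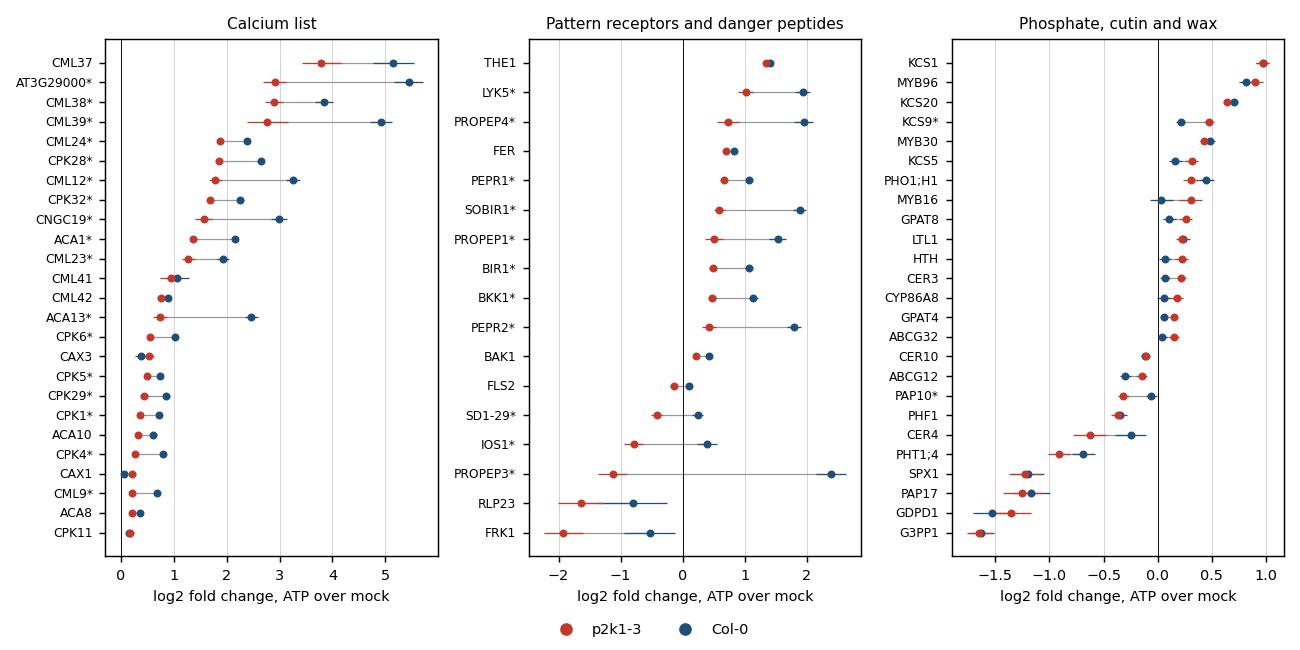
Log2 fold change of ATP over mock (points, with SE bars) in p2k1-3 (red) and Col-0 (blue) for the members called in p2k1-3 in the calcium list, the list of pattern receptors and danger peptides, and the phosphate, cutin and wax lists; an asterisk marks a called difference between the responses. The calcium genes lie above 0 with Col-0 mostly further out, PROPEP3 has -1.13 in p2k1-3 and 2.39 in Col-0, and G3PP1, GDPD1 and PAP17 lie below 0 in both.

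MAP kinase and oxidase genes rose in p2k1-3 in 8 of 19 cases and fell in 0, against 12 and 0 in Col-0. Replicates 1 and 2 alone called 7 and 0 in p2k1-3. MPK3, a MAP kinase of immune signalling, had 152, 191 and 172 CPM in p2k1-3 ATP and 59, 65.4 and 63.3 CPM in p2k1-3 mock, a rise of 1.46 ± 0.06. RBOHD, the oxidase of the oxidative burst, had 109, 146 and 129 CPM in p2k1-3 ATP and 63.7, 65.4 and 68.3 CPM in p2k1-3 mock, a rise of 0.96 ± 0.07. The groups did not overlap for either gene. Both responses were lower than in Col-0, with differences of -0.74 ± 0.09 (edgeR adjusted p = 5.31e-06) for MPK3 and -0.77 ± 0.09 (edgeR adjusted p = 7.44e-06) for RBOHD, also with replicates 1 and 2 alone. MKK9, a kinase that activates MAP kinases, rose by 1.43 ± 0.16, and AP2C1, a phosphatase that inactivates them, by 0.94 ± 0.12, with differences from Col-0 that were not called (-0.62 ± 0.23 and -0.20 ± 0.17).

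Pattern receptors, which detect microbial molecules or the state of the wall, and danger peptides of the PROPEP family moved in both directions in p2k1-3. Of 25 tested, 11 rose and 6 fell, against 16 and 0 in Col-0, and 13 had a lower and 0 a higher response than in Col-0. Replicates 1 and 2 alone called 7 rises, 1 fall and 3 lower responses. THE1, a receptor kinase that monitors the cell wall, had 149, 148 and 145 CPM in p2k1-3 ATP and 57.2, 60.7 and 56.7 CPM in p2k1-3 mock, without overlap. It rose by 1.34 ± 0.04 and its relative FER by 0.70 ± 0.03, with 1.41 ± 0.04 and 0.82 ± 0.03 in Col-0. The chitin receptor gene LYK5 rose by 1.02 ± 0.12, a lower response than the 1.93 ± 0.12 of Col-0 with all replicates and not with replicates 1 and 2 alone.

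PROPEP3, the precursor of a wound-induced danger peptide, changed in opposite directions in the genotypes. It had 0.753, 0.583 and 0.416 CPM in p2k1-3 ATP and 0.924, 1.47 and 1.44 CPM in p2k1-3 mock, against 2.12, 1.89 and 1.79 CPM in Col-0 ATP and 0.419, 0.37 and 0.313 CPM in Col-0 mock. The p2k1-3 groups did not overlap, and p2k1-3 mock lay above Col-0 mock. It fell in p2k1-3, with -1.13 ± 0.24 (edgeR adjusted p = 0.00086), and rose in Col-0 by 2.39 ± 0.24. The difference was -3.52 ± 0.34 (edgeR adjusted p = 4.8e-07), called also with replicates 1 and 2 alone, whereas the fall in p2k1-3 was not. PROPEP4 rose by 0.73 ± 0.18 and the receptor gene RLP23 fell by 1.65 on the log2 scale in p2k1-3, calls that were also lost with replicates 1 and 2 alone.

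Cysteine-rich receptor-like kinases, a large family of membrane receptors, rose in 6 and fell in 9 of 37 cases in p2k1-3, against 16 and 3 in Col-0. In replicates 1 and 2 alone the calls were 5 and 5 in p2k1-3. CRK10 had 41.2, 57 and 47.4 CPM in p2k1-3 ATP and 23.8, 24.1 and 24.7 CPM in p2k1-3 mock, without overlap. It rose by 1.0 ± 0.09, CRK41 by 1.37 ± 0.09, CRK40 by 0.74 ± 0.06 and CRK42 by 0.60 ± 0.08. CRK6 fell by 2.18, CRK45 by 1.71 and CRK20 by 1.69 on the log2 scale in p2k1-3. All 3 were higher in p2k1-3 mock than in Col-0 mock (by 2.33, 2.14 and 2.92). A lower response than in Col-0 was called for 12 of the 37, and for 2 with replicates 1 and 2 alone. The family holds close copies, so reads of single members are uncertain.

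WRKY factors, transcription factors of stress and defence, rose in 13 of 28 cases and fell in 6 in p2k1-3, against 16 and 1 in Col-0. With replicates 1 and 2 alone the calls were 8 and 4 in p2k1-3. WRKY18 had 110, 132 and 119 CPM in p2k1-3 ATP and 21.1, 29.4 and 24.3 CPM in p2k1-3 mock, a rise of 2.27 ± 0.08. WRKY33, a regulator of camalexin synthesis, had 77.6, 113 and 97.9 CPM in p2k1-3 ATP and 29.7, 32.6 and 32.9 CPM in p2k1-3 mock, a rise of 1.60 ± 0.11. The ATP libraries of both genes lay above all mock libraries. WRKY46 rose by 2.24 ± 0.18 and WRKY40 by 1.71 ± 0.17. All 4 responses were lower than in Col-0. WRKY33 (-1.44 ± 0.16 with all replicates) and WRKY40 (-2.81 ± 0.29) kept that call with replicates 1 and 2 alone. All 4 genes were called higher than Col-0 in mock and lower after ATP. On the log2 scale WRKY33 had 1.10 in mock and -0.34 after ATP, and WRKY40 had 1.37 and -1.44.

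Other WRKY genes fell in p2k1-3. WRKY30 had 0.582, 0.619 and 0.384 CPM in p2k1-3 ATP and 4.06, 4.82 and 3.75 CPM in p2k1-3 mock, against 1.06, 0.691 and 1.19 CPM in Col-0 ATP and 0.349, 0.333 and 0.345 CPM in Col-0 mock. Its p2k1-3 mock libraries lay above all libraries of these other groups. It fell by 2.99 on the log2 scale in p2k1-3 and rose by 1.50 ± 0.31 in Col-0, a difference of -4.49 ± 0.39 (edgeR adjusted p = 1.61e-07). WRKY53, known from leaf senescence, fell by 1.12 on the log2 scale in p2k1-3 and rose by 1.36 ± 0.27 in Col-0, and it too was higher in p2k1-3 mock than in Col-0 mock (2.23). A lower response than in Col-0 was called for 15 of the 28, and for 6 with replicates 1 and 2 alone.

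ERF and DREB factors, which act in ethylene, cold and drought responses, rose in 17 of 28 cases and fell in 1 in p2k1-3, against 20 and 0 in Col-0. The medians were 1.02 in p2k1-3 and 1.74 in Col-0, and replicates 1 and 2 alone called 12 and 1 in p2k1-3. CBF2, a regulator of cold acclimation, had 3.69, 5.79 and 4.64 CPM in p2k1-3 ATP and 0.528, 0.465 and 0.411 CPM in p2k1-3 mock, a rise of 3.32 ± 0.33 without overlap, with 3.18 ± 0.29 in Col-0. AT1G71450 had 44 counts in the p2k1-3 ATP libraries and 1 in the p2k1-3 mock libraries together, a ratio of 44.8 with a counting interval from 7.63 to 1810 (95%, exact binomial). RRTF1, a redox-responsive factor, had 10 counts in p2k1-3 ATP and 0 in p2k1-3 mock, at least 3.39-fold higher against a floor of 3 counts over the group. Its call ended without any 1 of the 6 p2k1-3 libraries (edgeR adjusted p between 0.076 and 0.115), and with RRTF1 at that bound the list median was again 1.02. AT5G61890 fell by 2.22 on the log2 scale in p2k1-3 and was higher in p2k1-3 mock than in Col-0 mock (2.22). A lower response than in Col-0 was called for 9 of the 28, and for 3 with replicates 1 and 2 alone.

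Zinc finger, MYB and NAC stress factors rose in 16 of 24 cases and fell in 2 in p2k1-3, against 20 and 1 in Col-0. In replicates 1 and 2 alone the calls were 13 and 0 in p2k1-3. SZF1, a salt-induced zinc finger gene, had 148, 186 and 163 CPM in p2k1-3 ATP and 28.2, 28.7 and 27.4 CPM in p2k1-3 mock, without overlap. It rose by 2.56 ± 0.09, less than in Col-0, with a difference of -1.26 ± 0.13 (edgeR adjusted p = 7.06e-07). SZF1 was higher in p2k1-3 than in Col-0 in mock (0.79 on the log2 scale) and lower after ATP (-0.47). ZAT10, a repressor in abiotic stress, rose by 2.30 ± 0.19. AT3G46080, another zinc finger gene, rose by 3.92 ± 0.36 from 12 counts summed over the p2k1-3 mock libraries. Lower calls were made for MYB15 (-0.76 ± 0.24) and ANAC072 (-0.26 ± 0.09). That of MYB15 ended without p2k1-3 ATP replicate 1 or 3 or p2k1-3 mock replicate 2 or 3 (edgeR adjusted p between 0.0659 and 0.226), and that of ANAC072 without p2k1-3 ATP replicate 2 or 3 or p2k1-3 mock replicate 2 or 3 (edgeR adjusted p between 0.0587 and 0.237).

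**Figure D4:**
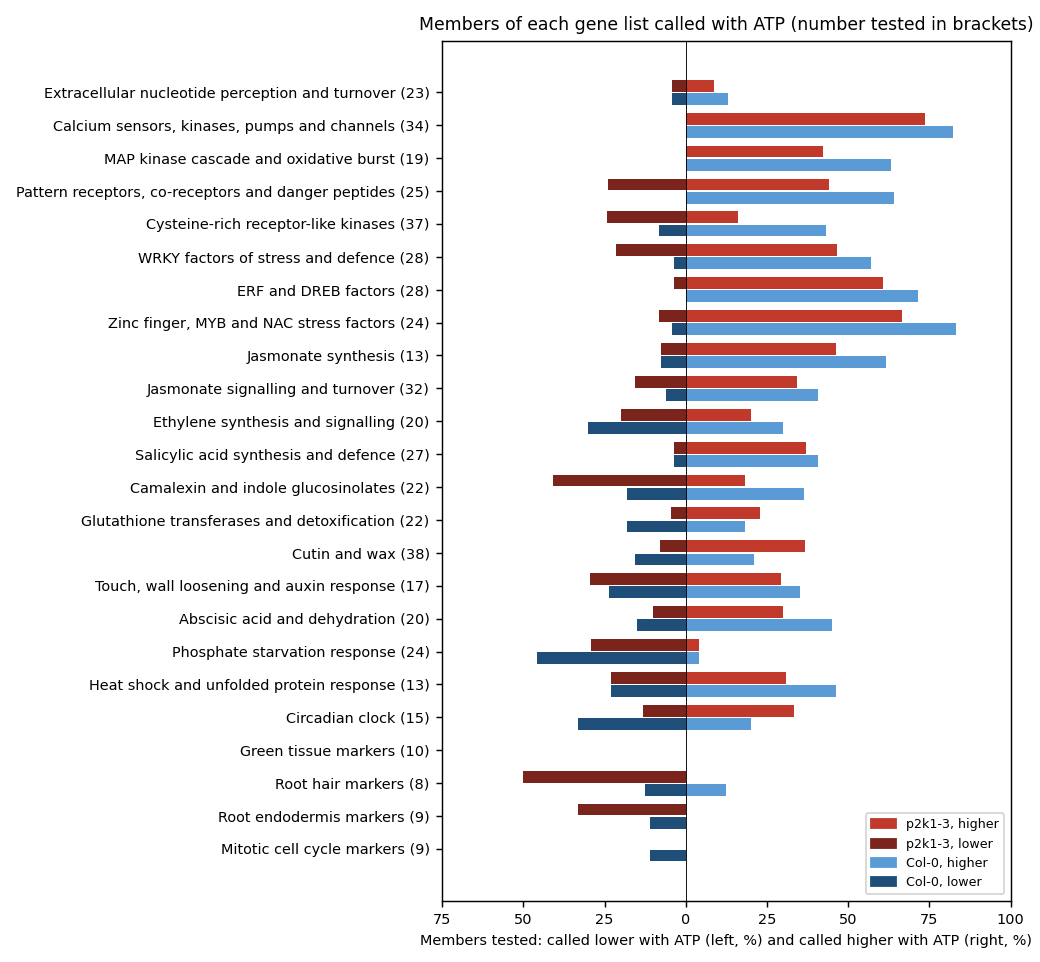
Percent of the tested members of each gene list that were called higher (right of 0) and lower (left of 0) with ATP, with p2k1-3 above Col-0 for each list and the number tested in brackets. Over all 20995 genes 11.9% were called higher and 8.53% lower in p2k1-3, against 13.2% and 8.67% in Col-0. The lists were chosen with earlier results of these data known, so the shares are a description.

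Jasmonate, the main wound hormone, was represented by a synthesis and a signalling list. Synthesis genes rose in 6 of 13 cases and fell in 1 in p2k1-3, against 8 and 1 in Col-0, and replicates 1 and 2 alone called 4 and 0 in p2k1-3. LOX4, a lipoxygenase of an early step, had 33.2, 43.8 and 38.6 CPM in p2k1-3 ATP and 5.25, 6.5 and 6.51 CPM in p2k1-3 mock, a rise of 2.66 ± 0.16 without overlap. AOC3, an allene oxide cyclase, rose by 1.22 ± 0.10 and OPCL1, a ligase of a later step, by 0.83 ± 0.08. Both responses were lower than in Col-0 (-1.13 ± 0.14 and -0.94 ± 0.12), and both calls held with replicates 1 and 2 alone. LOX3 rose by 0.51 ± 0.13 with all replicates and not with replicates 1 and 2 alone.

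Jasmonate signalling genes rose in 11 of 32 cases and fell in 5 in p2k1-3, against 13 and 2 in Col-0, and replicates 1 and 2 alone called 5 and 2 in p2k1-3. The JAZ repressors, which jasmonate removes, held 7 of the rises among 13 tested. JAZ7 rose by 2.31 ± 0.47 from 26 counts summed over p2k1-3 mock, and JAZ8 by 2.32 ± 0.59 from 6. CYP94C1, which breaks down the active hormone, had 16, 14.7 and 15.9 CPM in p2k1-3 ATP and 2.54, 3.75 and 2.73 CPM in p2k1-3 mock, a rise of 2.38 ± 0.15 without overlap. The transcription factor gene MYC4 fell by 0.39 on the log2 scale in p2k1-3 and by 0.71 in Col-0. PDF1.2, a defensin gene, rose by 2.14 ± 0.39. The calls of JAZ8 and PDF1.2 were lost with replicates 1 and 2 alone.

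Ethylene genes rose in 4 of 20 cases and fell in 4 in p2k1-3, against 6 and 6 in Col-0. Replicates 1 and 2 alone called 3 and 2 in p2k1-3. Over all genes 11.9% were called higher and 8.53% lower in p2k1-3, so counts this small describe the list only. Members of the ACS family, the enzymes of the committed step, moved in both directions. ACS6 had 52.5, 65.2 and 55.8 CPM in p2k1-3 ATP and 12, 15.3 and 13.7 CPM in p2k1-3 mock, a rise of 2.08 ± 0.09 beside that of ACS11. ACS4 had 0.239, 0.547 and 0.513 CPM in p2k1-3 ATP and 1.52, 1.32 and 0.997 CPM in p2k1-3 mock. It fell, with a log2 change of -1.55 ± 0.29, with -1.27 ± 0.26 in Col-0. The p2k1-3 groups of neither gene overlapped.

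Salicylic acid genes rose in 10 of 27 cases and fell in 1 in p2k1-3, against 11 and 1 in Col-0, and replicates 1 and 2 alone called 6 and 0 in p2k1-3. SARD1, a factor that switches on salicylic acid synthesis, had 15.4, 17.3 and 18.1 CPM in p2k1-3 ATP and 5.84, 5.79 and 5.28 CPM in p2k1-3 mock, a rise of 1.59 ± 0.12 without overlap. NUDT7, a hydrolase that restrains immunity, rose by 1.62 ± 0.07. Both responses were lower than in Col-0 (-1.96 ± 0.19 and -1.0 ± 0.10), and both calls held with replicates 1 and 2 alone. In mock both genes were higher in p2k1-3 than in Col-0 (1.48 and 0.38 on the log2 scale). After ATP both were lower (-0.48 and -0.62). GRX480, a glutaredoxin, rose by 2.25 ± 0.46 from 20 counts summed over p2k1-3 mock, a call lost with replicates 1 and 2 alone. PR1, a marker of salicylic acid responses, had 0.103, 74.2 and 39.9 CPM in p2k1-3 ATP and 0.198, 10.8 and 5.6 CPM in p2k1-3 mock. Its replicate 1 was near 0 in both groups, and the groups overlapped. Its call (2.80 ± 0.80) ended without p2k1-3 ATP replicate 2, p2k1-3 mock replicate 1 or p2k1-3 mock replicate 3 (edgeR adjusted p between 0.0524 and 0.15).

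Camalexin and indole glucosinolate genes, which make defence compounds of the cabbage family, rose in 4 of 22 cases and fell in 9 in p2k1-3, against 8 and 4 in Col-0. With replicates 1 and 2 alone the calls were 2 and 4 in p2k1-3. AT1G26380, which encodes an oxidoreductase, had 0.513, 0.692 and 0.384 CPM in p2k1-3 ATP and 3, 3.29 and 3.52 CPM in p2k1-3 mock, against 0.281, 0.597 and 0.457 CPM in Col-0 ATP and 0.105, 0.333 and 0.313 CPM in Col-0 mock. Its p2k1-3 mock libraries were above all libraries of these other groups. It fell by 2.63 on the log2 scale in p2k1-3 and had a value of 0.81 ± 0.40 in Col-0 that was not called. The camalexin synthesis gene CYP71A12 fell by 1.48 on the log2 scale with all replicates and was not called with replicates 1 and 2. MYB51, a regulator of indole glucosinolates, had 49.6, 63.3 and 57.5 CPM in p2k1-3 ATP and 17.2, 18.9 and 16.9 CPM in p2k1-3 mock, without overlap. It rose by 1.69 ± 0.09 in p2k1-3 and 3.20 ± 0.10 in Col-0. CYP81F2, an enzyme that modifies indole glucosinolates, rose by 0.58 ± 0.09 in p2k1-3 and 2.16 ± 0.10 in Col-0. MYB51 and CYP81F2 were both higher in p2k1-3 mock than in Col-0 mock (1.34 and 1.47 on the log2 scale). After ATP neither was called against Col-0 (-0.17 and -0.11). A lower response than in Col-0 was called for 8 and a higher one for 1 of the 22, and for 4 and 0 with replicates 1 and 2 alone.

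Cutin and wax genes, which build the cuticle, rose in 14 of 38 cases and fell in 3 in p2k1-3, against 8 and 6 in Col-0. In replicates 1 and 2 alone the calls were 6 and 0 in p2k1-3. KCS1, an enzyme that lengthens fatty acids for wax, had 106, 124 and 110 CPM in p2k1-3 ATP and 63, 53.9 and 56.5 CPM in p2k1-3 mock, a rise of 0.97 ± 0.06 without overlap, with 0.97 ± 0.06 in Col-0. MYB96, a regulator of wax synthesis, rose by 0.90 ± 0.07, KCS20 by 0.64 ± 0.04 and KCS9 by 0.47 ± 0.04. The called difference from Col-0 in the list was that of KCS9, at 0.26 ± 0.06 (edgeR adjusted p = 0.0133), and it was lost with replicates 1 and 2 alone. CER4, which makes wax alcohols, fell by 0.63 on the log2 scale with all replicates and was not called with replicates 1 and 2.

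Genes of the phosphate starvation response fell in 7 of 24 cases and rose in 1 in p2k1-3, against 11 and 1 in Col-0. With replicates 1 and 2 alone the calls were 7 lower and 0 higher in p2k1-3. G3PP1, a putative glycerol phosphate transporter, had 12.5, 15.2 and 15.7 CPM in p2k1-3 ATP and 52.6, 39.8 and 43.5 CPM in p2k1-3 mock, against 14.1, 14.2 and 15.5 CPM in Col-0 ATP and 46.1, 46.5 and 42.6 CPM in Col-0 mock. In each genotype the ATP libraries lay below all mock libraries. The log2 change was -1.65 ± 0.11 (edgeR adjusted p = 3.91e-11) in p2k1-3 and -1.63 ± 0.11 in Col-0, and the difference was -0.02 ± 0.16. GDPD1, a phosphodiesterase that acts on lipid breakdown products, fell by 1.35, and the acid phosphatase gene PAP17 by 1.25 on the log2 scale in p2k1-3, with -1.53 ± 0.18 and -1.17 ± 0.18 in Col-0. A difference from Col-0 was called for 1 gene in each direction, NPC4 higher and PAP10 lower, both named after their values were seen, and neither was called with replicates 1 and 2 alone.

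The levels of root markers stand beside these falls. The summed level of 8 root hair markers ran from 114 to 144 CPM in p2k1-3 ATP and from 146 to 167 CPM in p2k1-3 mock, against 127 to 167 CPM in Col-0 ATP and 137 to 187 CPM in Col-0 mock. The sum of 9 root endodermis markers ran from 39.0 to 40.4 CPM in p2k1-3 ATP and from 48.5 to 51.5 CPM in p2k1-3 mock, against 45.3 to 48.1 CPM in Col-0 ATP and 49.5 to 61.6 CPM in Col-0 mock. In p2k1-3 the groups did not overlap for either sum, and in Col-0 they overlapped for the root hair sum only. Of the root hair markers 4 fell in p2k1-3, among them RSL4 (-1.10 ± 0.23), a factor of hair growth, and of the endodermis markers 3, among them CASP2 (-0.45 ± 0.11), a protein of the Casparian strip. In replicates 1 and 2 alone the calls were 1 fall in each list. A difference from Col-0 was called for 0 members of either list. The median log2 fold change of the root hair markers was -0.32 in p2k1-3 and -0.25 in Col-0. That of the endodermis markers was -0.26 in p2k1-3 and -0.17 in Col-0. In p2k1-3 bdg-8, 4 root hair markers fell and 1 rose, and 3 endodermis markers fell. Of the 10 green tissue markers and the 9 mitotic markers none was called in p2k1-3 by edgeR. No marker was at 0 in these groups, and the part of tissue makeup in the falls was not tested.

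Touch, wall and auxin genes gave 5 rises and 5 falls among 17 in p2k1-3, against 6 and 4 in Col-0, with 4 and 4 for replicates 1 and 2 in p2k1-3. XTH23, a wall enzyme like XTH22, rose by 3.05 ± 0.11. EXPA1, an expansin that loosens walls, had 79.1, 84.8 and 82.7 CPM in p2k1-3 ATP and 228, 200 and 218 CPM in p2k1-3 mock. It fell, with a log2 change of -1.39 ± 0.06 without overlap. Abscisic acid and dehydration genes gave 6 rises and 2 falls among 20 in p2k1-3 (4 and 1 with replicates 1 and 2), against 9 and 3 in Col-0. CYP707A1, an enzyme like CYP707A3, had 0.86 ± 0.17 and the factor gene ABF3 -0.36 ± 0.06 in p2k1-3. Heat shock and unfolded protein genes gave 4 rises and 3 falls among 13 in p2k1-3 (4 and 2 with replicates 1 and 2), against 6 and 3 in Col-0. The rises in p2k1-3 were those of transcription factor genes, HSFB2A (1.33 ± 0.11) among them. The falls in p2k1-3 were those of the chaperone genes BIP1 (-0.30 ± 0.05), BIP2 (-0.32 ± 0.05) and BIP3 (-1.64 ± 0.39), the last not called with replicates 1 and 2. Clock genes gave 5 rises and 2 falls among 15 in p2k1-3 (2 and 1 with replicates 1 and 2), against 3 and 5 in Col-0. No difference from Col-0 was called among the clock genes. TOC1 had 0.62 ± 0.06 and PRR9 -0.69 ± 0.09 in p2k1-3. Glutathione transferase and detoxification genes gave 5 rises and 1 fall among 22 in p2k1-3 (2 and 0 with replicates 1 and 2), against 4 and 4 in Col-0. A higher response than in Col-0 was called for 4 of the 22 and a lower one for 3. With replicates 1 and 2 alone these were 0 and 2. OPR1, an oxophytodienoate reductase, had 0.98 ± 0.13 in p2k1-3. Beside the small counts of these lists, 11.9% of all genes were called higher and 8.53% lower in p2k1-3.

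The 12 largest falls in p2k1-3 among genes whose mean log2 CPM was 1 or more were between 3.0 and 5.74 fold. WRKY30 and AT1G26380, given above, fell more and were below that level. In 9 of them the gene was also called higher in p2k1-3 mock than in Col-0 mock, a call made for 3.41% of all genes, and in the other 3 it was not. Both comparisons use the p2k1-3 mock libraries, so they are not independent. FRK1, a receptor-like kinase and marker of immune signalling, had 13.9, 11.7 and 12.3 CPM in p2k1-3 ATP and 21.7, 74.8 and 48 CPM in p2k1-3 mock, against 9.3, 3.11 and 5.8 CPM in Col-0 ATP and 7.82, 9.51 and 9.09 CPM in Col-0 mock. AT2G43620, annotated as a chitinase family protein, had 28, 23.8 and 26.5 CPM in p2k1-3 ATP and 66.2, 158 and 108 CPM in p2k1-3 mock, against 44.9, 11.7 and 29 CPM in Col-0 ATP and 29.2, 29 and 29.3 CPM in Col-0 mock. CRK6 had 0.582, 1.24 and 1.25 CPM in p2k1-3 ATP and 3.86, 5.54 and 4.57 CPM in p2k1-3 mock, against 1.09, 0.22 and 0.843 CPM in Col-0 ATP and 1.08, 0.703 and 0.972 CPM in Col-0 mock. In all 3 genes the p2k1-3 mock libraries were above every p2k1-3 ATP and Col-0 library, and in each replicate 2 was highest among them. The high mock level was not shared evenly by p2k1-3 bdg-8, which carries the same receptor allele. In its mock libraries FRK1 had 10.3, 5.05 and 8.33 CPM, near Col-0 mock. AT2G43620 had 66.8, 61.5 and 61.9 CPM there and CRK6 3.7, 4.48 and 4.09 CPM, both above Col-0 mock.

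FRK1 and the other genes of this kind fell at different depths. The log2 changes with ATP in p2k1-3 were -1.92 ± 0.32 (edgeR adjusted p = 5.62e-05) for FRK1, -2.08 ± 0.27 (edgeR adjusted p = 1.86e-06) for AT2G43620 and -2.18 ± 0.27 (edgeR adjusted p = 7.82e-07) for CRK6. The other 6 were AT2G17740 (-2.52 ± 0.27), annotated with a C1 domain, the VQ motif gene AT4G20000 (-2.03 ± 0.23), the receptor-like protein gene RLP21 (-2.09 ± 0.21), the kinase gene CRK45 (-1.71 ± 0.25), and the uncharacterized AT5G36907 (-2.14 ± 0.30) and AT1G65500 (-1.74 ± 0.24). Their excess over Col-0 in mock lay between 1.32 for AT1G65500 and 2.45 for FRK1 on the log2 scale. After ATP, 8 of the 9 were not called against Col-0, and AT4G20000 was lower in p2k1-3 (-0.89). The response was called lower than in Col-0 for 7 of the 12 falls. With replicates 1 and 2 alone AT4G20000 kept that call (-2.72 ± 0.34 with all replicates). Replicate 2 was the highest p2k1-3 mock library in all 9, and replicate 3 lay between the other two mock libraries in all 12. All 12 falls were called in every setting tried, and without p2k1-3 mock replicate 2 their log2 changes lay between -2.20 and -1.42. The part of the p2k1-3 mock levels in these falls was not tested.

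The other 3 falls were shared with the wild type. PPCK1, the kinase that activates phosphoenolpyruvate carboxylase, had 6.94, 6.81 and 7.11 CPM in p2k1-3 ATP and 26.8, 18.9 and 21.9 CPM in p2k1-3 mock, against 8.24, 9.05 and 8.08 CPM in Col-0 ATP and 23.2, 22.8 and 22.1 CPM in Col-0 mock. The ATP libraries of both genotypes lay below all mock libraries. It fell by 1.70 on the log2 scale in p2k1-3 and by 1.42 in Col-0. G3PP1, given above, and AT5G20790, an uncharacterized gene (-1.59 ± 0.24 in p2k1-3 and -2.08 ± 0.24 in Col-0), were the others. No difference from Col-0 was called for these 3.

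**Figure D5:**
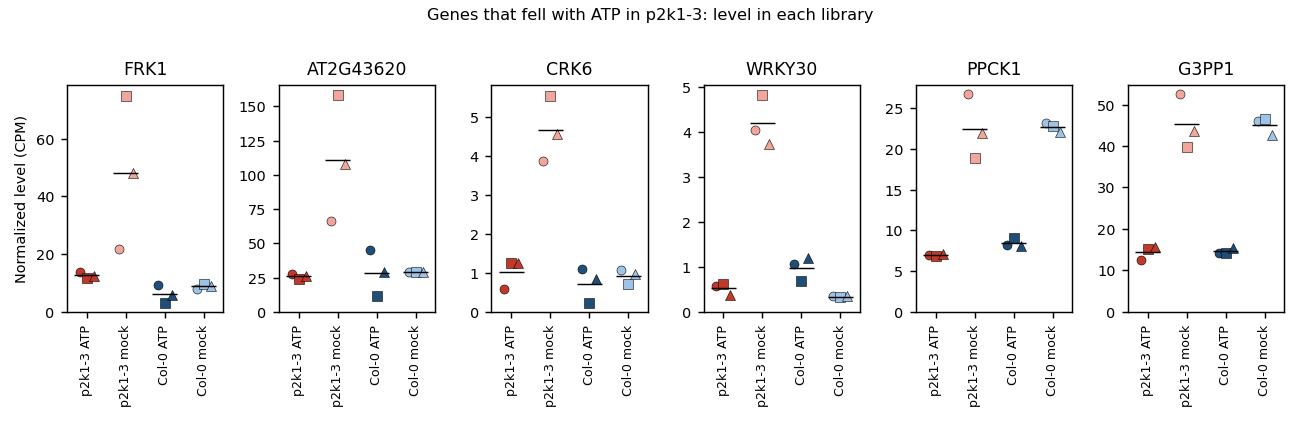
Normalized level (CPM, axis from 0) of 6 genes that fell with ATP in p2k1-3, in each library of p2k1-3 ATP, p2k1-3 mock, Col-0 ATP and Col-0 mock; circles, squares and triangles are replicates 1, 2 and 3 and bars are group means. FRK1, AT2G43620, CRK6 and WRKY30 are highest in p2k1-3 mock, whereas PPCK1 and G3PP1 are near each other in the mock libraries of both genotypes.

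The most negative differences from Col-0, at that minimum level, were larger than 5 fold. TAT3, a jasmonate-induced aminotransferase gene, had 1.37, 2.3 and 1.99 CPM in p2k1-3 ATP and 1.55, 7.51 and 4.72 CPM in p2k1-3 mock, against 17, 12.3 and 14.6 CPM in Col-0 ATP and 0.977, 1.07 and 0.721 CPM in Col-0 mock. The p2k1-3 groups overlapped, and its own value of -1.27 ± 0.45 lost its call without p2k1-3 mock replicate 2 or 3 or without any 1 of the p2k1-3 ATP libraries (edgeR adjusted p between 0.0765 and 0.315). ERF13, an ethylene-response factor, had 3.35, 4.23 and 3.17 CPM in p2k1-3 ATP and 1.06, 0.5 and 0.909 CPM in p2k1-3 mock, against 20.1, 21.5 and 20.3 CPM in Col-0 ATP and 0.349, 0.333 and 0.533 CPM in Col-0 mock. It rose by 2.09 ± 0.22 in p2k1-3 and stayed below every Col-0 ATP library. WRKY40 had 12.2, 19.5 and 16.2 CPM in p2k1-3 ATP and 3.93, 5.79 and 4.9 CPM in p2k1-3 mock, against 40.6, 46.1 and 42.9 CPM in Col-0 ATP and 1.43, 2.48 and 1.76 CPM in Col-0 mock. It was lower than Col-0 after ATP and higher than Col-0 in mock.

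Of the 8 most negative differences by this ranking, 7 were called higher in p2k1-3 mock than in Col-0 mock and 6 lower in p2k1-3 ATP than in Col-0 ATP, calls made for 3.41% and 5.13% of all genes. These comparisons share libraries with the difference itself. The cytochrome P450 gene CYP706A2 rose by 1.21 ± 0.20 in p2k1-3 and 4.62 ± 0.26 in Col-0. IGMT2, a methyltransferase of indole glucosinolates, fell by 0.97 on the log2 scale in p2k1-3 and rose by 2.38 ± 0.22 in Col-0. The glycosyltransferase gene AT1G05675 had -0.38 ± 0.23 in p2k1-3, which was not called, and rose by 2.50 ± 0.31 in Col-0. All 8 differences were called in every setting tried. No gene had a called higher response in p2k1-3 with replicates 1 and 2 alone (0%). With all replicates and that minimum level the most positive were GSTU24, ChlAKR, CYP81D11 and NPC4, chosen after their values were seen. GSTU24, a glutathione transferase, had 24.6, 27.4 and 25.2 CPM in p2k1-3 ATP and 12.7, 17.4 and 15.9 CPM in p2k1-3 mock, against 16.5, 16.7 and 17 CPM in Col-0 ATP and 14.2, 32.3 and 24.9 CPM in Col-0 mock. Its p2k1-3 libraries were higher after ATP without overlap, and the Col-0 mock libraries were spread widely.

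In the double mutant p2k1-3 bdg-8, which carries the same receptor allele and bdg-8, ATP called 7070 genes (33.7%), with 3598 (17.1%) higher and 3472 (16.5%) lower. The 1895 rises shared by both genotypes were 75.9% of those in p2k1-3 and 52.7% of those in the double mutant, and the 897 shared falls were 50.1% and 25.8%. The test of the difference called 3406 genes (16.2%), with a lower response in p2k1-3 for 2067 (9.85%) and a higher one for 1339 (6.38%). With replicates 1 and 2 alone it called 1267 genes (6.03%), 1023 (4.87%) lower and 244 (1.16%) higher. Among the 12 largest rises in p2k1-3, 10 were lower than in the double mutant and none was higher. AT1G33760, CYP707A3 and AT3G55840 lost that call with replicates 1 and 2 alone.

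Of the rises in p2k1-3, 58 genes fell in the double mutant, and of the falls in p2k1-3, 139 rose there. The genes named here have the most extreme differences at that minimum level. FRK1 fell in p2k1-3 (-1.92) and rose in the double mutant (1.97), a difference of -3.89 ± 0.47 (edgeR adjusted p = 1.08e-06). AT2G17740 (-3.76) and AT5G36907 (-3.55) also fell in p2k1-3 and rose in the double mutant. AT1G05675 (-3.73) and AT5G36925 (-3.63) were not called in p2k1-3 and rose in the double mutant. In the other direction P1R1, annotated as a transcription factor, had -0.36 ± 0.14 in p2k1-3, which was not called, and fell by 1.99 on the log2 scale in the double mutant. CYP78A6, a cytochrome P450, fell by 0.95 in p2k1-3 and by 2.57 in the double mutant on the log2 scale. AT2G20670, annotated as a putative sugar phosphate exchanger, had 80, 86.1 and 85.2 CPM in p2k1-3 ATP and 31.2, 26.6 and 26.4 CPM in p2k1-3 mock, a rise of 1.58 ± 0.10 without overlap, with a value of 0.14 in the double mutant that was not called.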

How the data were processed

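The authors deposited 1 table per library with the raw read count of each gene. The submitters' processing notes name STAR 2.7.4a, HTSeq 0.13.5, cutadapt 1.13 and MultiQC 1.9. Settings, strand use and genome build are not given in the sources used here, so no coordinates or sequences are printed, and overlapping or antisense genes are uncertain. Summary entries (7.6 to 12.17% of each library) were left out. Names came from a TAIR10.1 gene table, which held 33056 of 33245 identifiers.

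All 24 libraries, with 25856588 to 35239775 counts in genes, entered 1 model with a mean per group in edgeR 4.0.16 (R 4.3.3), with TMM scaling, the default low-count filter and 16 residual degrees of freedom. Contrasts were adjusted by Benjamini-Hochberg over all genes. The method was tested on simulated data. SEs come from the F statistic, and counting intervals cover counting error only. Alternatives were other size factors, no filter, DESeq2 1.42.0, subsets of libraries and a replicate block.

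Members, the 24 lists of 550 genes (516 tested) and the tests were chosen with earlier results of these data known. Named were, among genes called with all replicates and with replicates 1 and 2 and a mean log2 CPM of at least 1, the 12 largest changes in each direction in p2k1-3 and the 8 and 5 most extreme differences from Col-0 and the double mutant. Per list, up to 4 rises and 3 falls were eligible; most list genes whose call ended without 1 library, and some others, are not described.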

Additional observations from a re-analysis of the deposited data

Results flagged for a closer look

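Responses to ATP that differed between p2k1-3 and another genotype, by the edgeR test of the difference, are collected here as values. Against Col-0 the log2 difference of the responses was -5.27 for TAT3, -3.54 for ERF13, -3.41 for CYP706A2, -3.35 for IGMT2, -2.87 for AT1G05675, -2.81 for WRKY40, -2.72 for AT4G20000 and -2.48 for WRKY53, all lower in p2k1-3. It was 1.25 for GSTU24, 1.10 for ChlAKR, 1.02 for CYP81D11 and 0.99 for NPC4, all higher in p2k1-3 and all lost with replicates 1 and 2 alone. The calls of CYP81D11 (edgeR adjusted p between 0.0502 and 0.0638) and NPC4 (edgeR adjusted p between 0.0501 and 0.0676) also ended without p2k1-3 ATP replicate 1, Col-0 ATP replicate 1 or Col-0 mock replicate 2, and that of NPC4 without p2k1-3 ATP replicate 2 or p2k1-3 mock replicate 3.

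Against the double mutant p2k1-3 bdg-8 the log2 difference of the responses was -3.89 for FRK1, -3.76 for AT2G17740, -3.73 for AT1G05675, -3.63 for AT5G36925 and -3.55 for AT5G36907, all lower in p2k1-3. It was 1.63 for P1R1, 1.62 for CYP78A6, 1.50 for HBI1, 1.44 for AT2G20670 and 1.41 for AT1G29500, all higher in p2k1-3.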

How the results depend on the processing

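Leaving out replicate 3 moved the counts most: 1883 genes were called for the ATP response in p2k1-3 in place of 4287, 149 in place of 940 for the difference from Col-0 and 1267 in place of 3406 for the difference from p2k1-3 bdg-8. Over the settings that leave out a replicate number or 1 library, the counts ran from 1883 to 4813 for the ATP response in p2k1-3, from 149 to 1275 for the difference from Col-0 and from 1267 to 3628 for that from p2k1-3 bdg-8. Of the single libraries, p2k1-3 mock replicate 3 gave the lowest count for p2k1-3 (3418), p2k1-3 mock replicate 2 for the difference from Col-0 (665) and p2k1-3 bdg-8 ATP replicate 1 for that from p2k1-3 bdg-8 (2714). The cause was not tested. With other scaling, no filter, DESeq2 or only the compared libraries in the fit, counts stayed within 1.5 times. Of 2453 alternatives for 166 named results, 2291 kept the call, 162 ended it and 0 reversed it. Of the 162, 48 were without replicate 3, and 22 results lost their call without some single library. In p2k1-3, same-numbered ATP and mock libraries deviated together with correlations of 0.173, 0.087 and 0.06, so the numbers were not taken as pairs. A replicate block called 4992, 1193 and 3935 genes for the 3 comparisons, and each p2k1-3 ATP library correlated best with the mock library of its own number, a hint from the data and not the design. Low counts limit RRTF1, AT1G71450 and JAZ8, whose p2k1-3 mock libraries held 0, 1 and 6 counts together.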

Other observations

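Of the 550 genes in the lists, 34 had too few counts to be tested. For 8 of them no read was counted in any of the 24 libraries, among them MYC2, a central transcription factor of jasmonate signalling, and ERF105. These 8 are listed at 0 in the files, and whether the genes were silent or their reads were not assigned to them was not tested. The other 26 had at most 19 counts in a library.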
